A study of Mus musculus with 12 samples.

Results

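Dense-core vesicle cargo and processing genes were examined as a set of 9 genes, taken by name. They were the granin-type cargo genes Vgf, Scg2, Scg3, Scg5, Chga and Chgb and the processing enzymes Pcsk1, Pcsk2 and Cpe. Each of the 9 symbols matched a single entry among the 41091 gene IDs of the count tables, and all 9 passed the filter on low counts in every comparison. Hippocampal slices with the dentate gyrus cut away were taken from mice of 2 to 3 months (strain C57BL/6, genotype Wild type), and their total RNA was sequenced. Chemical LTP (long-term potentiation, here LTP) was induced with 50 uM forskolin, which activates adenylyl cyclase, for 5 min, and then with forskolin, 30 mM KCl and 10 mM calcium, giving 10 min of treatment in all. Control slices received 0.2% DMSO for the same 10 min and were of the same genotype and strain. Slices were frozen 1 hr or 3 hr later, which gave 4 groups (1 hr control, 1 hr LTP, 3 hr control, 3 hr LTP) of 3 libraries. Within a time point the LTP and control slices with the same replicate number came from the same animal. RNA was taken from whole slices, so fewer cells of a type and less RNA per cell cannot be told apart.

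Dense-core vesicles carry neuropeptides and hormones to regulated release sites. Granins are acidic, calcium-binding secretory proteins that condense with peptide precursors in the trans-Golgi and help form these vesicles. Inside the maturing vesicle, prohormone convertases cut the precursors after basic residues, and carboxypeptidase E removes the basic residues that are left. Several of the granins are themselves cut into peptides, and Vgf and Scg2 have long been used as readouts of neuronal activity and cAMP signalling, which acts in part through the cAMP response element.

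The promoter stretches around cAMP response element letters are shown because forskolin raises cAMP and these genes were compared after forskolin. RefSeq promoter sequence (GRCm38.p6, from 250 bases before to 50 bases after the annotated start) was present for 7 of the 9 genes, the exceptions being Vgf and Cpe. Capitals mark TGACG or its reverse complement CGTCA, the element's half-site, on either strand, and the palindrome TGACGTCA, which holds both. Each line reads 5′ to 3′ on the gene's own strand.
Scg2: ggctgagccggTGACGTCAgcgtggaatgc
Chgb: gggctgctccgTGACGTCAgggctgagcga
Pcsk1: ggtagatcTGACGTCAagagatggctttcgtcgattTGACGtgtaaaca
Chga: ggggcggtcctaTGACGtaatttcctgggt
Scg3: gcgctgggtcgcTGACGccatcctcacgcc
Pcsk2: ctggcgggcgcgCGTCAcccgggctggcgc
Scg5: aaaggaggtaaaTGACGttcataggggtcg

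These stretches lay at chr1:79440076-79440105 (minus strand) for Scg2, chr2:132781559-132781588 (plus) for Chgb and chr13:75089771-75089819 (plus) for Pcsk1. Those of the half-site genes lay at chr12:102554885-102554914 (plus) for Chga, chr9:75684069-75684098 (minus) for Scg3, chr2:143546087-143546116 (plus) for Pcsk2 and chr2:113829249-113829278 (minus) for Scg5. The palindrome began 68 bases before the RefSeq start of Scg2, 72 before that of Chgb and 78 before that of Pcsk1. GENCODE starts the transcripts of Scg2 and Chgb 94 and 364 bases upstream of RefSeq, so in that annotation both palindromes fall in the first exon. Scg5 holds 2 more half-sites downstream of its start, TGACG at bases 20 to 24 and CGTCA at bases 41 to 45, whose stretches are not shown. The palindrome was present in 3 of the 7 promoters, against 1.79% of all 32851 promoters of the same length, and at least 1 half-site in 7 of 7, against 20.8%. The palindrome contains the half-site, so the second count includes the first, and a match describes letters and not a bound factor.

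The 9 genes spanned a wide range of levels, and their order was nearly the same in every group. Levels were compared between genes per kb of annotated exon, as TMM-scaled CPM (a gene's count relative to the library total) divided by exonic length. In 1 hr control slices Cpe was highest, at 870 ± 35.2 CPM per kb (SD, n = 3), followed by Chgb at 479 ± 22.3, Scg2 at 191 ± 12.4, Scg5 at 125 ± 7.89 and Scg3 at 94.2 ± 6.04. Pcsk2 (49.24 ± 1.303), Chga (36.8 ± 3.40) and Vgf (31.6 ± 5.37) followed. Pcsk1 was lowest, at 5.10 ± 0.144 CPM per kb. Neighbouring genes in the order of each group did not overlap over the 3 libraries, except Chga and Vgf in 1 hr control and 1 hr LTP slices and Vgf and Pcsk2 in 3 hr control slices. Per kb of exon, Vgf lay above Chga in both 3 hr groups (44.7 to 56.1 against 36.0 to 38.7 CPM per kb in control slices), and above Pcsk2 without overlap in 3 hr LTP slices (47.4 to 69.1 against 41.2 to 44.6).

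The order in the middle depended on which length was used. The study describes its expression analysis as based on reads in coding regions, while the tables also give counts to 10035 noncoding or pseudogene IDs (4.38% of all counts), so which bases of a coding gene were counted was not settled. Per kb of coding length, a setting added after the data were seen, Cpe and Chgb still led and Pcsk1 was still lowest in all 4 groups. Pcsk2, whose annotated exons lie mostly outside the coding sequence, then lay above Vgf in every group (in 3 hr LTP slices 171 to 185 against 76.1 to 111 CPM per coding kb). Vgf lay below Chga in 1 hr control slices (50.7 ± 8.63 against 73.1 ± 6.75 CPM per coding kb, SD, n = 3), overlapped it in 3 hr control slices (71.8 to 90.1 against 71.5 to 76.8) and lay above it in 3 hr LTP slices (76.1 to 111 against 64.1 to 74.7). No comparison between groups below rests on a length.

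Pcsk2 exceeded Pcsk1 per kb in every library, by 8.69 to 10.98 times per kb of exon in the 1 hr libraries and 4.97 to 8.39 times in the 3 hr libraries. Per kb of coding length the ratio was 14.5 to 18.3 in the 1 hr libraries and 8.29 to 14.0 in the 3 hr libraries. Pcsk2 shares 4.54% of its exonic bases with the antisense genes Pcsk2os1 and Pcsk2os2, and whether reads were counted by strand is not stated, so that part of its count is uncertain. Scg3 overlaps Gm37871 in span without sharing exonic bases.

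**Figure D1:**
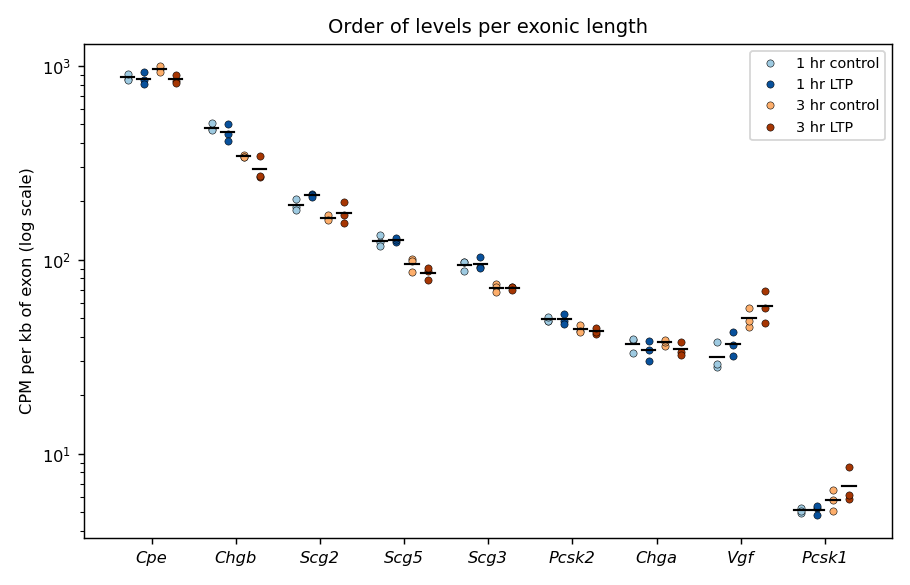
Level of the 9 genes per kb of annotated exon (log axis) in each library, with the group mean as a short line and genes ordered by their mean in 1 hr control slices. Cpe lies near 870 CPM per kb and Pcsk1 near 5.10, and on this length Vgf moves above Chga and Pcsk2 by the 3 hr LTP group.

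Library totals ran from 37118382 to 50815001 counts, and the least counted of the 9 genes, Pcsk1, had 1077 to 2167 counts per library. 1 hr control replicate 2 was set aside as an outlier in the study and is not in the fits at 1 hr unless stated, which leaves 2 control and 3 LTP libraries there. Its values are given beside the others. Markers listed for CA pyramidal neurons summed to 2595 to 4042 CPM per library. Most of that sum was Camk2a (1588 to 2631 CPM) and Slc17a7 (527 to 910 CPM), while Fibcd1 measured 109 to 197 CPM and Wfs1 59.0 to 120 CPM. The share of CA tissue in the slices was not tested. Markers of dentate granule cells summed to 286.5 to 410.4 CPM after trimming. The largest part was Calb1 (102.5 to 185.6 CPM), while Prox1 measured 45.9 to 79.8 CPM and C1ql2 22.5 to 48.2 CPM. Those of choroid plexus summed to 23.4 to 29.4 CPM, most of it Kl (21.5 to 28.4 CPM). The others of that list were low, with Ttr at 0 to 2.22, Folr1 at 0.637 to 1.29 and Otx2 at 0.213 to 1.31 CPM. Th, Dbh and Pnmt, which mark the catecholamine cells best known for chromogranin A, summed to 0.308 to 0.972 CPM.

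The first question was whether LTP changed these genes after 1 hr. Vgf, the precursor of several secreted peptides, showed the largest difference of the 9. Its level was 83.7, 112 and 85.7 CPM in 1 hr control animals 1, 2 and 3, and 107.5, 95.1 and 125.5 CPM in the LTP slices of the same animals. LTP slices were higher in animals 1 and 3 and lower in animal 2, and the groups overlapped only through the control library of animal 2, which was the one set aside. Without that library, the level of Vgf was 30.1% higher after LTP (log2 difference 0.38, SE 0.10, 95% interval 0.18 to 0.58). A gene was called where edgeR's quasi-likelihood test gave a Benjamini-Hochberg adjusted p below 0.1 together with a change of more than 1.2-fold, and Vgf did not pass (adjusted p = 0.142).

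The call for Vgf at 1 hr varied with the treatment of animal 2, with the tool and with the filter on low counts. With the animal as a block, which rests on the pairs of animals 1 and 3 because animal 2 then has no control, the log2 difference was 0.46 (edgeR adjusted p = 0.000428), and 1.16% of genes were called in that fit. With all 6 libraries it was 0.23 (adjusted p = 0.639), and with all 6 and the block 0.23 (adjusted p = 0.871). Leaving out 1 hr LTP replicate 2 gave 0.47 (adjusted p = 0.00592), and no filter on low counts gave 0.38 (adjusted p = 0.000361). DESeq2 on the same 5 libraries called Vgf (0.38, adjusted p = 0.0235), in a fit where 1.01% of genes were called. Over all alternatives the log2 difference ranged from 0.23 to 0.47 and the adjusted p from 0.000361 to 0.871.

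In the edgeR test 0 of the 9 genes were called at 1 hr, where 0.789% of the 17736 genes tested were called. At an unadjusted p under 0.05 the count was 1 of 9, and DESeq2 called 1 and limma-voom 0. The median log2 difference of the 9 was -0.01, beside -0.00103 for all genes.

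Scg2, the precursor of secretoneurin, was the other gene whose LTP slices all lay above the control slices. It measured 473, 453 and 514 CPM in 1 hr control animals 1 to 3 and 547, 539 and 532 CPM in their LTP slices, higher in 3 of 3 animals. The log2 difference was 0.14 (SE 0.07, 95% interval -0.000549 to 0.28, edgeR adjusted p = 0.748) and did not pass. Groups without overlap occurred for 2 of the 9 genes in these 5 libraries, and for 22.6% of all genes tested.

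For the other 7 genes the 1 hr differences lay close to 0. The chromogranins Chga and Chgb differed by -0.07 and -0.10 on the log2 scale, with 95% intervals of -0.28 to 0.13 and -0.26 to 0.07. Scg3, which helps sort granins into vesicles, and Scg5, the chaperone of the convertase made from Pcsk2, differed by -0.03 (-0.19 to 0.13) and -0.01 (-0.15 to 0.13). The processing enzymes Pcsk1, Pcsk2 and Cpe differed by 0.04 (-0.14 to 0.23), 0.00252 (-0.15 to 0.15) and -0.03 (-0.18 to 0.12). The control and LTP ranges of all 7 overlapped, although Chgb was lower in the LTP slices of 3 of 3 animals. At 1 hr 3 of 4 oligodendrocyte markers were above 0 and 3 of 4 endothelial markers below 0 at an unadjusted p under 0.05 in edgeR, with 0 of either list called. The sums of these lists went from 4226 to 5148 CPM in control slices to 4985 to 6015 CPM in LTP slices, and from 84.5 to 91.1 CPM to 71.8 to 75.2 CPM. Of the interneuron markers Gad2 (0.20) and Slc32a1 (0.20) were also above 0 at that level, with list sums of 370.1 to 423 CPM and 422 to 442 CPM, as was Otx2 of the choroid plexus list (2.08), and Calb1 of the dentate granule list (-0.18) was below 0. None of these 4 genes was called, and the part of these markers in the difference of Vgf was not tested.

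**Figure D2:**
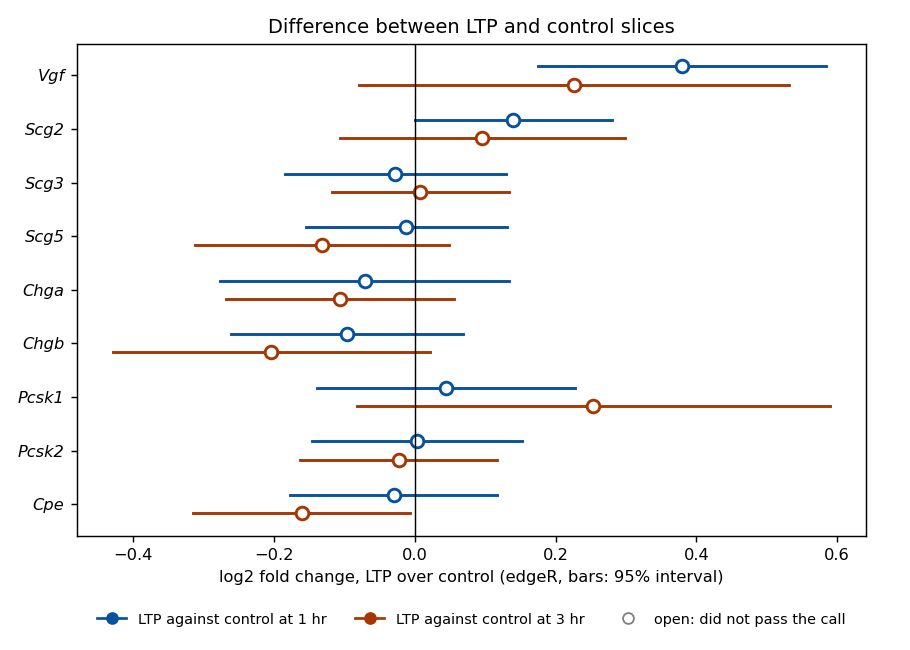
Log2 difference between LTP and control slices for the 9 genes at 1 hr and 3 hr, with 95% intervals from edgeR. All 18 points are open because none passed the call, and the interval of Vgf at 1 hr (0.18 to 0.58) lies furthest from 0.

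After 3 hr, again, 0 of the 9 genes were called by edgeR, where 6.60% of 17508 genes were called. At an unadjusted p under 0.05 the count was 1 of 9 by edgeR and 2 of 9 by limma-voom, while DESeq2 called 0 and limma-voom 0. That edgeR fit does not use the pairing by animal. With the animal as a block in edgeR, 4 of 9 had an unadjusted p under 0.05, as did 4260 of the 17508 genes, and 0 of 9 were called. Under the block the edgeR adjusted p was 0.124 for Pcsk1 and 0.166 for Scg5. The median log2 difference of the 9 was -0.02, beside -0.00248 for all genes. The differences of single genes had both signs.

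Vgf measured 133, 144 and 167 CPM in 3 hr control animals 1 to 3, and 168, 141 and 205.5 CPM in the LTP slices. It was higher after LTP in 2 of 3 animals and the groups overlapped. The log2 difference was 0.23 (SE 0.13, 95% interval -0.08 to 0.53, edgeR adjusted p = 0.385). Without 3 hr LTP replicate 2 it was 0.35 and was called (adjusted p = 0.0630), while without 3 hr LTP replicate 3 it was 0.07 (adjusted p = 0.761).

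Pcsk1, the convertase that acts early in vesicle maturation, was higher after LTP in 3 of 3 animals at 3 hr. Its level was 32.2, 36.6 and 28.3 CPM in control slices and 32.7, 47.6 and 34.3 CPM in LTP slices. Animal 2 was highest in both groups, and the groups overlapped. The log2 difference was 0.25 (SE 0.15, 95% interval -0.08 to 0.59, edgeR adjusted p = 0.377) and was 0.07 without 3 hr LTP replicate 2 (adjusted p = 0.705).

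Chgb and Cpe, the most abundant of the 9, had lower means after LTP at 3 hr without reaching the call. Chgb measured 952, 926.5 and 925 CPM in control slices and 730, 739 and 944 CPM in LTP slices. LTP animals 1 and 2 lay below all controls, and animal 3 lay among them. The log2 difference was -0.20 (SE 0.10, 95% interval -0.43 to 0.02, edgeR adjusted p = 0.292). Without 3 hr LTP replicate 3 it was -0.34 and Chgb was called (adjusted p = 0.0156). Cpe measured 2502, 2587 and 2413 CPM in control slices and 2171, 2134 and 2343 CPM in LTP slices, lower in 3 of 3 animals with no overlap. Its log2 difference was -0.16 (SE 0.07, 95% interval -0.31 to -0.01, edgeR adjusted p = 0.227), which is under the fold minimum. Cpe was the single gene of the 9 whose groups did not overlap at 3 hr, where this held for 27.0% of all genes.

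The remaining genes differed less at 3 hr. Scg5 and Chga were lower after LTP in 3 of 3 animals each, by -0.13 (95% interval -0.31 to 0.05) and -0.11 (-0.27 to 0.06) on the log2 scale. Scg2 differed by 0.10 (-0.11 to 0.30) and was higher in 2 of 3 animals. The differences of Scg3 (0.01, -0.12 to 0.13) and Pcsk2 (-0.02, -0.16 to 0.12) were small, and the sign of that of Scg3 turned under total-count scaling (-0.0062).

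The change of the LTP difference from 1 hr to 3 hr was tested as an interaction in 1 model of the 4 groups. By edgeR 0 of the 9 genes passed an adjusted p under 0.1, where 0.0592% of 18584 genes passed, and 0 had an unadjusted p under 0.05, also by DESeq2 and limma-voom. The estimate for Vgf was -0.15 (95% interval -0.56 to 0.27) and that for Pcsk1 was 0.22 (-0.19 to 0.62), both on the log2 scale. For Vgf the interval is wide enough that neither a loss of its 1 hr difference, itself not called, nor its persistence was detectable. Pcsk1 differed by 0.04 at 1 hr (95% interval -0.14 to 0.23), and its interaction interval spanned both signs.

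**Figure D3:**
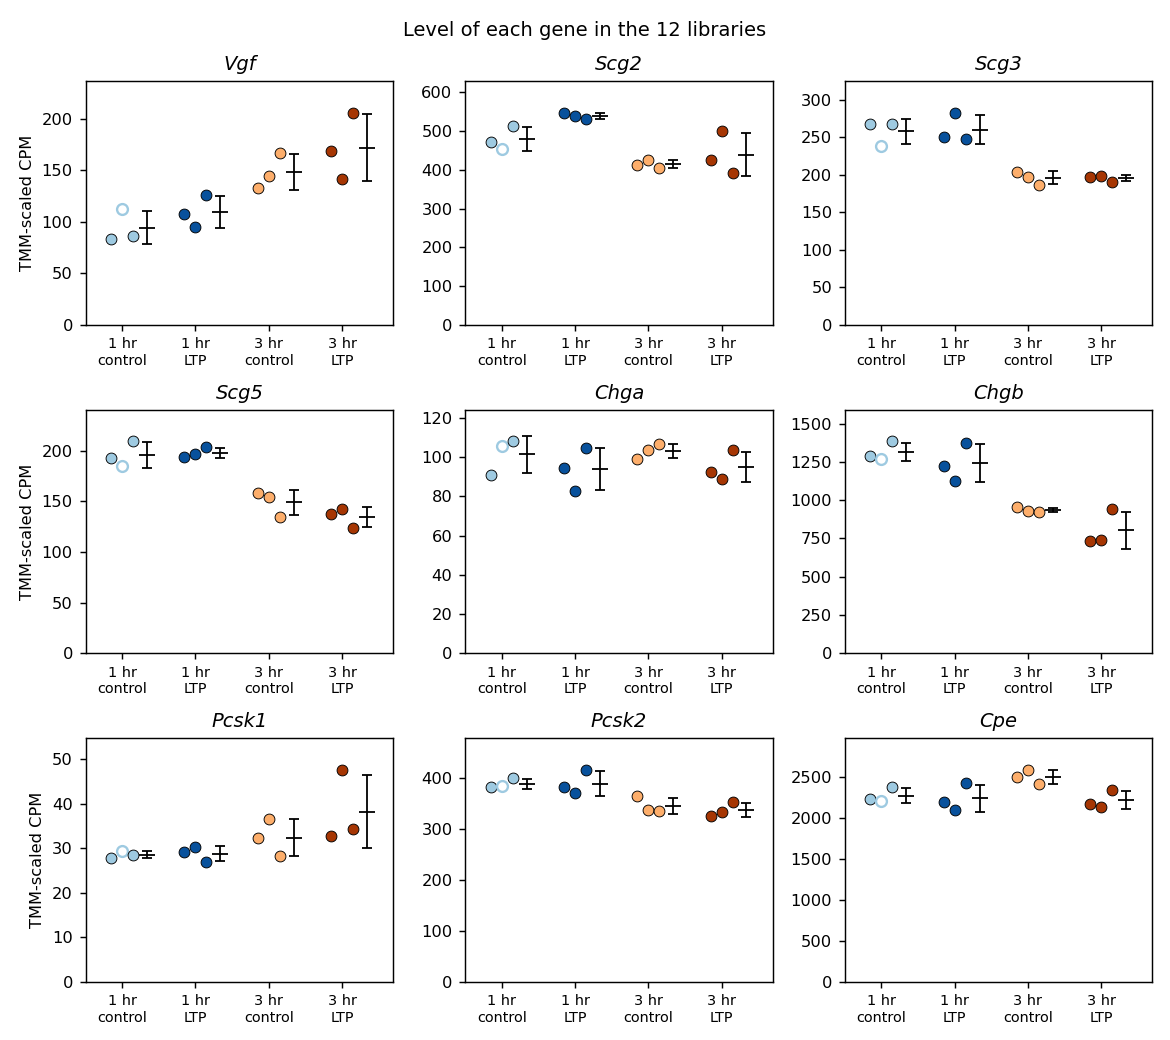
TMM-scaled CPM of each gene in the 12 libraries by group, with each point a library (replicates 1 to 3 from left to right), the 1 hr control library set aside shown open, and the mean ± SD of all 3 libraries at the right. Vgf rises from 83.7 to 112 CPM in 1 hr controls to 133 to 167 CPM in 3 hr controls, while Scg3, Scg5 and Chgb fall and the LTP and control points mostly intermix.

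The larger differences among these genes lay between the time points. In 3 hr against 1 hr control slices, 5 of the 9 genes were called by edgeR, 1 higher and 4 lower, where 32.8% of 18584 genes were called. Vgf was higher, and the granin-type genes Chgb, Scg3, Scg5 and Scg2 were lower. The 3 hr slices had spent longer in the chamber and the labels do not tie animals across time points, so time since treatment, time in the chamber and animal cannot be told apart. The same 1 hr and 3 hr controls also serve the LTP comparisons above.

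Vgf was 1.71-fold higher in 3 hr controls (log2 difference 0.78, SE 0.15, 95% interval 0.46 to 1.09, edgeR adjusted p = 0.00175). All 3 of the 3 hr controls (133 to 167 CPM) lay above all 3 of the 1 hr controls (83.7 to 112 CPM), the library set aside included. It was called under each of 20 alternatives, with log2 differences from 0.66 to 0.87.

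Chgb, among the most abundant granins of brain, fell from 1287, 1271 and 1384 CPM in the 1 hr controls to 952, 926.5 and 925 CPM in the 3 hr controls. This is a log2 difference of -0.54 (SE 0.11, 95% interval -0.77 to -0.31, edgeR adjusted p = 0.00224). The groups were far apart relative to the spread within each.

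Scg3 fell from 267, 239 and 267.5 CPM to 204, 197 and 187 CPM, and Scg5 from 193, 185 and 209 CPM to 158, 154 and 135 CPM. Their log2 differences were -0.48 (SE 0.07, edgeR adjusted p = 0.000339) and -0.46 (SE 0.08, adjusted p = 0.000921). Chgb, Scg3 and Scg5 were each called under all 20 alternatives. The median log2 difference of all genes after TMM scaling was -0.02.

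Scg2 fell from 473, 453 and 514 CPM to 413.5, 426 and 405 CPM, with no overlap. Its log2 difference of -0.28 (SE 0.09, edgeR adjusted p = 0.0260) sits just past the 1.2-fold minimum, and it was called in 5 of 20 alternatives. The value ranged from -0.32 to -0.18, and in the 15 alternatives where the call was lost the fold came below 1.2. These included leaving out each of 9 of the 11 libraries, the exceptions being 1 hr control replicate 1 and 3 hr control replicate 2. Without 1 hr control replicate 3 the log2 difference was -0.18 (adjusted p = 0.305), and with all 12 libraries -0.21 (adjusted p = 0.0710).

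The enzymes differed less over time in control slices. Pcsk2 fell by 0.21 on the log2 scale (edgeR adjusted p = 0.0415), from 383 to 401 CPM down to 335 to 365 CPM, which did not reach the fold minimum. Pcsk1 differed by 0.17 (95% interval -0.13 to 0.48) and Cpe by 0.09 (-0.08 to 0.26), neither passing. Chga, measured at 90.8 to 108 CPM at 1 hr and 99.3 to 107 CPM at 3 hr, differed by 0.02 (-0.19 to 0.24). Groups did not overlap for 7 of the 9 genes, beside 60.7% of all genes.

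LTP slices were compared over time in the same way, as a comparison added after the data were seen. In 3 hr against 1 hr LTP slices 6 of the 9 genes were called by edgeR, where 35.9% of genes were called. The log2 difference of Vgf was 0.63 (95% interval 0.35 to 0.91, adjusted p = 0.00207) and that of Chgb -0.64 (-0.85 to -0.43, adjusted p = 0.000308). Scg5 differed by -0.58, Scg3 by -0.43 and Scg2 by -0.32, all called, and Scg2 lost its call without 3 hr LTP replicate 3 (-0.23, adjusted p range over left-out libraries 0.000169 to 0.0348). Pcsk1 was the added call, with 29.3, 30.2 and 26.9 CPM at 1 hr and 32.7, 47.6 and 34.3 CPM at 3 hr. Its log2 difference was 0.39 (SE 0.13, edgeR adjusted p = 0.0261), and without 3 hr LTP replicate 2 it was 0.20 and not called (adjusted p = 0.107). Whether Pcsk1 changed more over time in LTP than in control slices is the interaction given above, which did not pass.

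**Figure D4:**
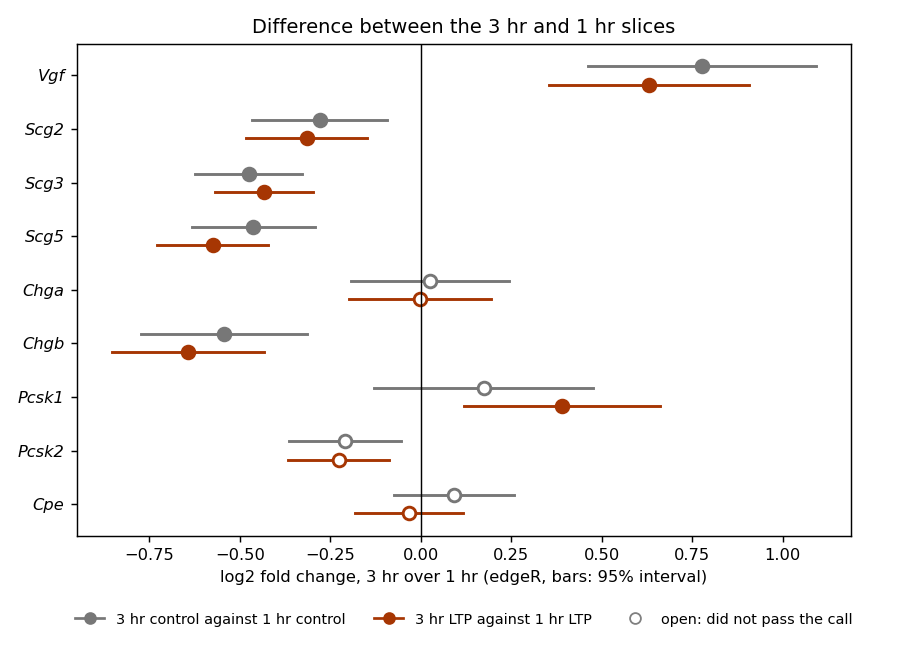
Log2 difference between 3 hr and 1 hr slices for the 9 genes, in control slices and in LTP slices, with 95% intervals from edgeR and filled points for genes called. Vgf lies to the right at 0.78 and 0.63, Chgb, Scg3, Scg5 and Scg2 lie to the left, and Chga lies near 0.

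Markers of other cell types also differed between the time points, in a comparison where 32.8% of all genes were called. Of 5 microglial markers 4 were lower in 3 hr controls and their sum went from 142 to 156.5 CPM at 1 hr to 99.6 to 112 CPM at 3 hr. Of 4 oligodendrocyte markers 2 were higher (sum 4226 to 5148 CPM at 1 hr and 5786 to 7115 CPM at 3 hr), and of 4 endothelial markers 2 were lower (84.5 to 91.1 against 75.9 to 77.6 CPM). Among 6 CA pyramidal markers 1 was higher and 1, Neurod6, was lower by 1.10 on the log2 scale, while the sum was 2903 to 3067 CPM and 2959 to 3069 CPM. Of 5 interneuron markers 3 were called in opposite directions, Gad2 (-0.41) and Lhx6 (-0.38) lower and Slc32a1 (0.55) higher, with sums of 370.1 to 423 CPM and 389 to 428 CPM. Slc1a3 (-0.29) was the 1 of 5 astrocyte markers called and Calb1 (-0.37) the 1 of 5 dentate granule markers, both lower. In none of these lists was a marker at 0 in all libraries of a group. Their part in the differences of Vgf and the granins was not tested.

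Other genes of the pathway were then read in 4 lists, beside the 0.789% of all genes called after LTP at 1 hr and the 6.60% at 3 hr. Among the other convertases and their partners, 0 of 7 tested were called after LTP at 1 hr by edgeR, with 0 at an unadjusted p under 0.05 and 0 by DESeq2 or limma-voom. At 3 hr 0 of the 7 were called by edgeR, again with 0 at an unadjusted p under 0.05 and 0 by DESeq2 or limma-voom, and the median log2 difference was -0.0031.

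Over time in control slices 3 of the 7 were called, all higher, where 32.8% of all genes were called in either direction. Furin, the convertase of the constitutive secretory pathway, went from 23.1 to 30.9 CPM at 1 hr to 43.6 to 49.2 CPM at 3 hr (log2 difference 0.97, edgeR adjusted p = 0.00198, called without each library in turn). Pcsk1n, whose product proSAAS inhibits the convertase made from Pcsk1, went from 48.2 to 87.1 CPM to 81.8 to 105 CPM. Its log2 difference was 0.73 (edgeR adjusted p = 0.0262) and the call was lost without 1 hr control replicate 3 (adjusted p = 0.192) and with all 12 libraries (adjusted p = 0.102). Pcsk7 was higher by 0.35 (edgeR adjusted p = 0.0262) and lost its call without 1 hr control replicate 1 (adjusted p = 0.139). All 7 differences were above 0, with a median of 0.35, beside 4 of 9 and -0.21 for the granins and their processing enzymes.

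Of the enzymes that act after the convertases, 0 of 5 were called after LTP at either time point by edgeR, DESeq2 or limma-voom (0.789% and 6.60% of all genes in edgeR), and 1 at 1 hr (Rnpep) and 0 at 3 hr had an unadjusted p under 0.05. Pam, which amidates peptides, was measured at 239 to 289 CPM in 1 hr controls and 259 to 289 CPM in 3 hr LTP slices. Over time in control slices, where 32.8% of all genes were called, 1 of 5 was called, Rnpep, an aminopeptidase that trims basic residues, at a log2 difference of 0.30 (edgeR adjusted p = 0.00847). With all 12 libraries it was 0.25, under the fold minimum.

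Among 18 genes of vesicle formation and release, 0 were called after LTP at 1 hr by edgeR, DESeq2 or limma-voom, and 2 had an unadjusted p under 0.05. At 3 hr 1 of 18 was called, a share near the 6.60% of all genes. It was Ptprn, a transmembrane protein of the vesicle. It measured 177, 186 and 199 CPM in control slices and 226.5, 212 and 288 CPM in LTP slices, so that every LTP library lay above every control library. The log2 difference was 0.39 (SE 0.11, edgeR adjusted p = 0.0917), and DESeq2 and limma-voom called it too. The call was lost without any of the 3 hr control libraries or 3 hr LTP replicate 1 (adjusted p up to 0.3035), and without 3 hr LTP replicate 3 the log2 difference of 0.23 was under the fold minimum. Over time in controls 4 of 18 were called, a smaller share than the 32.8% of all genes, and all 4 were lower, namely Rab27b, a GTPase of vesicle docking (-0.48), Syt10 (-0.42), Ccdc186 (-0.27) and Vti1a (-0.27). DESeq2 called 3 of the 18, Rab27b and Syt10 lower and Ptprn higher (0.27 in edgeR, adjusted p = 0.114, not called). With all 12 libraries Rab27b was the single one of the 4 still called, and it lost the call without 1 hr control replicate 3 (edgeR adjusted p = 0.132). Syt10 lost its call without 1 hr control replicate 1 (-0.20, adjusted p = 0.405). Vti1a and Ccdc186 sat at the fold minimum and lost their calls when any of 11 and any of 10 of the 11 libraries was left out, at -0.25 to -0.22 for Vti1a and down to -0.21 for Ccdc186.

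Among 14 peptide precursors, the cargo that these vesicles carry, LTP calls were confined to 3 genes over both time points. Trh, the precursor of thyrotropin-releasing hormone, measured 1.24, 1.51 and 2.51 CPM in 1 hr controls and 5.59, 4.22 and 3.86 CPM in 1 hr LTP slices. Its log2 difference was 1.28 (SE 0.26, edgeR adjusted p = 0.0401). The call was lost without 1 hr control replicate 1 (0.87, adjusted p = 0.481) and without 1 hr LTP replicate 1 (1.11, adjusted p = 0.249), and in 1 model of the 4 groups (1.27, adjusted p = 0.262). At 3 hr Trh was 3.98, 2.90 and 1.40 CPM in control slices and 12.7, 13.4 and 11.2 CPM in LTP slices, a log2 difference of 2.20 (SE 0.28, adjusted p = 0.00584) that was called without each library in turn. Cartpt and Tac1 were called at 3 hr with it, at 0.90 (adjusted p = 0.0125) and 0.65 (adjusted p = 0.0251). Tac1 lost its call without 3 hr control replicate 1 (adjusted p = 0.109) or 3 hr control replicate 3 (adjusted p = 0.106). The 3 precursors were low in these slices, at most 14.5 CPM in any library (Tac1), and their calls stand beside 1 of 14 at 1 hr and 3 of 14 at 3 hr in a list whose median differences were -0.06 and -0.05, where 0.789% and 6.60% of all genes were called.

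Over time in control slices 5 of the 14 precursors were called, a share near the 32.8% of all genes. Npy (-0.64), Penk (-0.57), Cck (-0.48) and Nucb2 (-0.77) were lower and Pdyn (0.51) was higher. The most abundant of them, Cck, the precursor of cholecystokinin, went from 263 to 290 CPM to 197 to 220.5 CPM (edgeR adjusted p = 0.00355). Npy, the precursor of neuropeptide Y, was not called without 1 hr control replicate 3 (adjusted p = 0.128), nor Pdyn without 1 hr control replicate 1 or 3 (adjusted p up to 0.140).

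**Figure D5:**
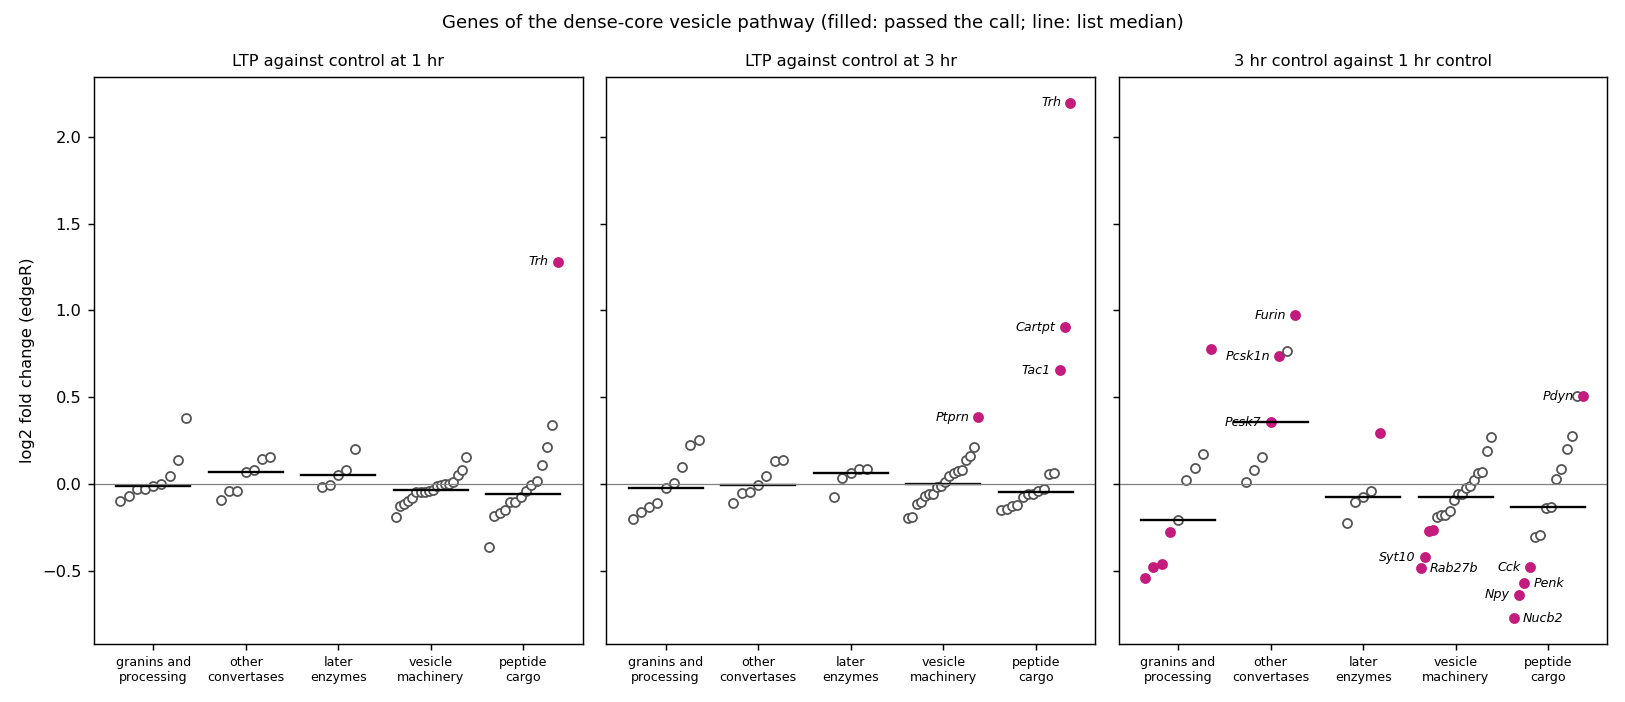
Log2 differences from edgeR for the 9 granin and processing genes and 4 lists of pathway genes, in the 2 LTP comparisons and in 3 hr against 1 hr control slices, with filled points for genes called and a line at each list's median. Under LTP the filled points are Trh at both times and Ptprn, Cartpt and Tac1 at 3 hr, while the time comparison has filled points on both sides of 0.

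Across the 12 libraries the 9 genes did not follow a single profile. Pearson's r of log2(CPM + 0.1) was 0.94 between Scg3 and Scg5, 0.94 between Chgb and Pcsk2 and 0.86 between Scg5 and Chgb, and it was -0.91 between Vgf and each of Scg3 and Scg5. Chga and Cpe were the genes least tied to the others (r = 0.74 with each other, and -0.40 to 0.26 between Chga and the remaining genes). These values describe 12 libraries in which the time points differ, so genes that differ between time points are alike or opposed for that alone.

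Among the 14185 genes that averaged 1 CPM or more, the profile most like that of Vgf was that of Jund (r = 0.98), a subunit of the AP-1 transcription factor, followed by Sbk1 and Ift172 (both 0.96). Jund measured 130 CPM on average. For Scg2 the nearest were the processed pseudogenes Gm13532 and Gm5835 (both 0.95), whose counts may include reads of their parent genes, and Lysmd3 (0.95). For Pcsk1, Gcnt2 (0.92) and E330009J07Rik (0.91) were among the 3 nearest.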

How the data were processed

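Total RNA of hippocampal slices was sequenced from 12 stranded, ribosomal RNA-depleted libraries. Per the study's methods the authors aligned paired reads with STAR 2.4.1c to GRCm38/mm10 and counted them per gene in R. The authors deposited unscaled counts for each gene in a separate table for 1 hr and for 3 hr. The study based expression on coding-region reads, and whether these counts are so limited is not given in the sources used here. The strand setting of the counting is not given in the sources used here. Of 41091 IDs, 40217 matched GENCODE M21, which gave symbols, positions and exonic lengths.

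The members and gene lists were chosen with earlier results of these data known. Named genes were the 9 members, genes of the lists that were called or whose level a sentence needed, and for Vgf, Scg2 and Pcsk1 the 3 genes of highest Pearson r. A gene of a list and a gene of high r are not reported here. Markers named at 1 hr without a call were chosen by an unadjusted p under 0.05 after their values were seen. Counts were tested with edgeR 4.0.16 (filterByExpr, TMM, quasi-likelihood F test, Benjamini-Hochberg) in R 4.3.3. Each time point was fitted alone. Comparisons over time and the interaction used 1 model of 11 libraries. DESeq2 1.42.0, limma-voom (limma 3.58.1), other scalings and filters, left-out libraries and an animal block were alternatives. The fits were tested on simulated data. 1 hr control replicate 2 was left out because the study's clustering set it aside. A floor of 3 counts corresponds to 0.059 to 0.0808 CPM and covers counting error only.

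The labels number the animals, and the study's methods state that each animal gave both LTP and control slices of its time point. Over all genes the deviations of paired libraries from their group means correlated at -0.0149, -0.156 and 0.075 in the 1 hr animals and 0.0385, -0.0275 and 0.218 in the 3 hr animals. Replicates of a group differed by far more than counting error, so no library was a duplicate of another of its group. Libraries of different groups were not compared in this way. The chi-square per degree of freedom, larger where 2 libraries differ more, was highest for 3 hr LTP replicates 2 and 3 (85.6). The pairs with 1 hr control replicate 2, the library set aside, gave 47.0 and 63.3.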

Additional observations from a re-analysis of the deposited data

How the results depend on the processing

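Of 873 values of the 9 genes recomputed under alternatives, 801 kept their direction and side of the threshold, 49 changed sign, 17 lost a call and 6 gained one. At 1 hr 1 gene was called in place of 0, Vgf each time, under DESeq2 (1), without a filter (1) and with the replicate block by animal (1). Leaving out 1 library gave 0 to 1 at 1 hr and 0 to 1 at 3 hr. The block changed no other call of the 9 genes. The causes were not tested. The depth was 37118382 to 50815001 counts and the fits had 2 or 3 animals a group, and how far either limited the calls was not tested.

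The sign changes, on the log2 scale, concerned differences near 0. At 1 hr, all 6 libraries without and with the block gave 0.02249 and 0.02139 for Scg3 and 0.02443 and 0.02598 for Scg5. The block gave 0.01089 for Chga and 0.01102 for Cpe. Pcsk2 was -0.0009625 without a filter and -0.007409 in 1 model of the 4 groups. At 3 hr Scg3 was -0.006208 with total counts and -0.008343 without a filter. For the change of the LTP difference, Scg3 was -0.01958 with all 12 libraries and -0.01823 with the block too. In 3 hr against 1 hr LTP slices Chga was 0.00546 by DESeq2, 0.0054 with its size factors, 0.01437 with total counts, 0.008948 without a filter, 0.001944 with at least 10 counts and 0.01606 with all 12 libraries.

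Leaving out 1 library gave these ranges. At 1 hr they were -0.09496 to 0.007642 for Scg3, -0.07133 to 0.04623 for Scg5, -0.1932 to 0.05799 for Chga, -0.04617 to 0.03531 for Pcsk2 and -0.08906 to 0.01594 for Cpe. At 3 hr they were -0.004061 to 0.165 for Scg2, -0.01949 to 0.03685 for Scg3 and -0.06478 to 0.01568 for Pcsk2. In control slices over time the range was -0.05484 to 0.1935 for Chga. For the change of the LTP difference they were -0.1609 to 0.02416 for Scg2, -0.00638 to 0.1175 for Scg3, -0.1859 to 0.06467 for Chga and -0.07962 to 0.04142 for Pcsk2. In LTP slices over time they were -0.06523 to 0.1092 for Chga and -0.06882 to 0.05704 for Cpe.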
